A study of Mus musculus with 8 samples.

Results

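The cytochrome P450 genes of families 1, 2 and 3, whose enzymes carry out most drug and foreign-compound oxidation in liver, were examined in mice labelled null for both cytosolic disulfide reductases. Members were all probe sets (groups of short probes read as 1 value) that the platform annotation pairs with exactly 1 gene whose symbol starts with Cyp1, Cyp2 or Cyp3 followed by a letter. This gave 46 of the 22690 probe sets on the array, of 39 genes among the 12393 named. Por, the reductase that feeds electrons to these enzymes, was also part of the rule, but no probe set is paired with it in the annotation used, so Por was not analysed here. Another 2 probe sets are paired with several P450 genes each and were set aside.

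Liver RNA came from 8 female mice of 4 weeks of age, all labelled C57BL/6J and without treatment, with 1 Affymetrix 3′ array per animal. The groups were 4 WT mice and 4 TrxR1/Gsr-null mice, the latter labelled null for thioredoxin reductase 1 (gene Txnrd1) and glutathione reductase (gene Gsr). The labels do not say how the genes were deleted, in which cells, or how the WT mice are related to the null mice. Values are log2 expression after GCRMA, the authors' background correction and normalization, and a difference is the null mean minus the WT mean on that scale.

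P450 enzymes are heme proteins of the endoplasmic reticulum that insert 1 atom of molecular oxygen into a substrate with electrons from NADPH. Their hepatic genes are controlled by ligand sensors, mainly AhR for Cyp1 genes, CAR (gene Nr1i3) for Cyp2b genes and PXR (gene Nr1i2) for Cyp3a genes, and in mice several Cyp2 and Cyp3a genes also follow the sex pattern of growth hormone. Many P450 genes sit in clusters of close relatives, so probes made for one can bind transcripts of another.

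The arrays differed somewhat in spread. Interquartile ranges were 3.97 and 3.74 log2 units on WT replicates 3 and 4 and 4.31 to 4.44 on the other 6 arrays. Gsr was lower in every null liver (5.82 to 6.31) than in every WT liver (7.03 to 7.21), whereas Txnrd1 was higher at its brightest probe set (11.65 to 12.07 against 9.56 to 9.93). The part of either gene that was deleted is not given, so the Txnrd1 probe set does not check its label. Of 12 hepatocyte markers 11 were tested and none was called by limma (1 was lower and none higher at an unadjusted p below 0.05), but 10 of the 11 differences were negative. Their mean level lay between 13.11 and 13.26 in WT and between 12.66 and 13.09 in null livers, without overlap. The part of that difference in the P450 results was not tested, and in whole liver fewer cells of a type and less RNA per cell cannot be told apart. Macrophage (7 tested), endothelial (8), stellate (7) and lymphocyte (1) markers held no called gene in limma, with 3, 1, 0 and 0 lower and none higher at an unadjusted p below 0.05. Of 2 bile duct markers tested, Epcam rose from 2.93 ± 0.33 to 3.87 ± 0.34 (SD, n = 4 each, limma adjusted p = 0.041). However, 3 of its 4 WT values lay below 3.03, the low-value limit used for all probe sets. The fit at 1 probe set per gene set its own limit by the same rule, which Epcam passed through its null livers.

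Of the 46 P450 probe sets, 36 (31 genes) passed the filter on low values, whose limit was a log2 value of 3.03, and 10 did not. By limma, 6 probe sets of 3 genes, Cyp2b10, Cyp2c23 and Cyp2d13, were called lower in the null livers at an adjusted p below 0.05, and none was called higher. Over all 13776 probe sets tested, 5.5% were called, 1.64% lower and 3.85% higher. Without WT replicate 3 or null replicate 1, 2 or 4, the share called higher was 2.30%, 2.32%, 2.21% or 2.20%. With 1 array left out in turn the share called lower was between 0.854% and 1.39% of all probe sets tested, and below 1.64% by over 1.5 times without WT replicate 2 (1.00%) or 3 (0.915%) or null replicate 1 (0.854%), 2 (0.869%) or 4 (1.08%). At an unadjusted limma p below 0.05, 11 P450 probe sets were lower and 2 higher, against 6.83% and 14.3% of all probe sets tested. The median difference of the 36 probe sets was -0.38 against 0.10 over all tested. Negative differences made up 24 of the 36 (66.7%), against 39.6% of all probe sets tested. With quantile normalization or centred array medians 26 were negative. Without both WT replicates 3 and 4 the median difference was -0.13.

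**Figure D1:**
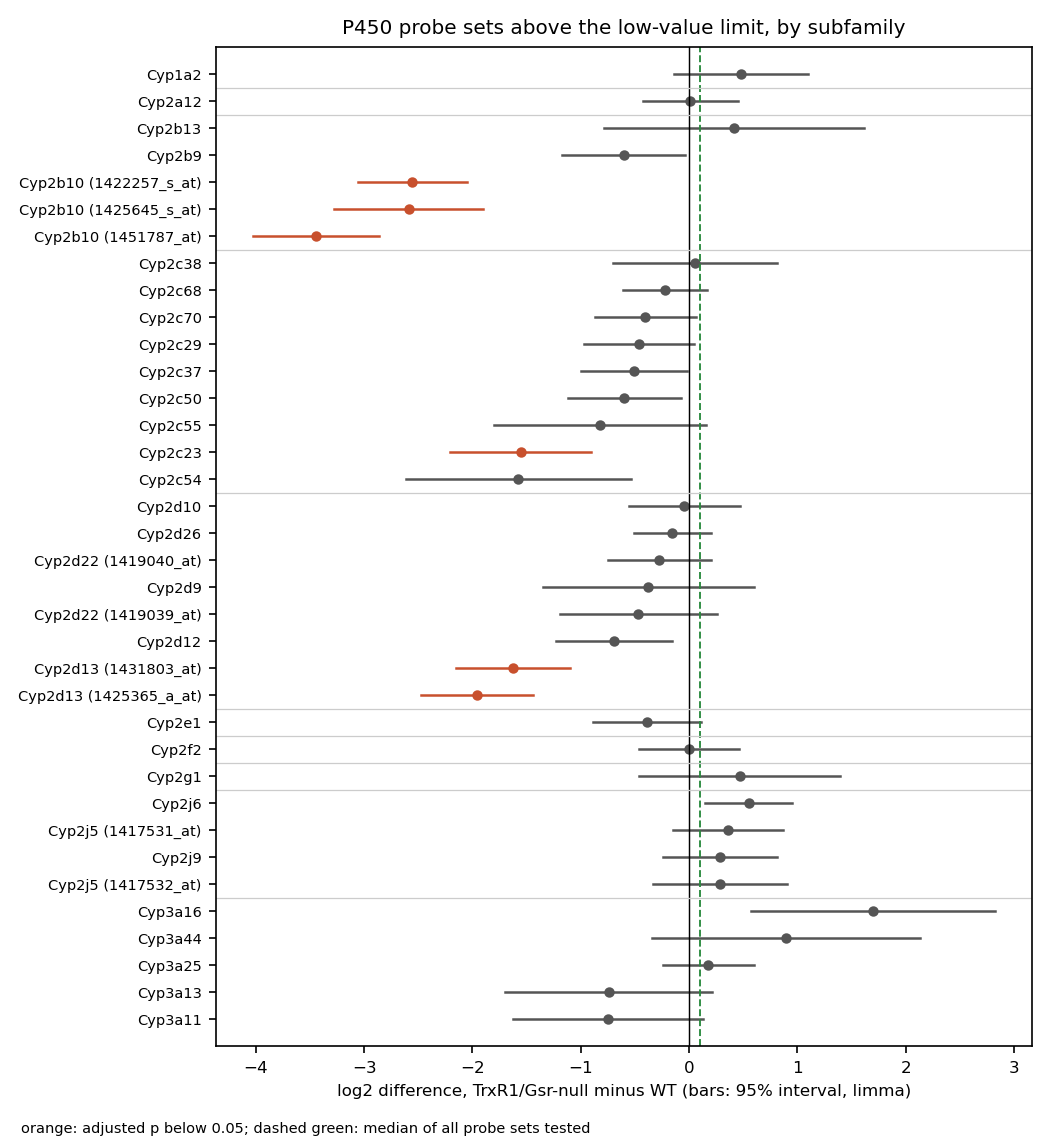
Log2 difference between TrxR1/Gsr-null and WT livers (x axis) for the 36 P450 probe sets that passed the low-value filter (y axis), grouped by subfamily, with 95% intervals from limma and n = 4 per group. The 6 orange probe sets, of Cyp2b10, Cyp2c23 and Cyp2d13, had an adjusted p below 0.05, and the dashed line is the median of all probe sets tested, 0.10.

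Cyp2b10, the mouse gene classically induced by phenobarbital through CAR, fell most, and all 3 of its probe sets moved alike. At the probe set not marked as matching several transcripts, WT replicates 1 to 4 read 8.46, 9.01, 8.71 and 8.30, and null replicates 1 to 4 read 5.72, 5.24, 5.17 and 4.58. The lowest WT liver stood well above the highest null liver. The mean fell from 8.62 ± 0.31 to 5.18 ± 0.47 (SD, n = 4 each), a log2 difference of -3.44 ± 0.26 (SE), or 10.9-fold lower, with a limma adjusted p of 7.94e-05.

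The other Cyp2b10 probe sets, both marked as able to match several transcripts, gave smaller falls of the same direction. The first read 8.38, 9.05, 8.52 and 9.56 in WT and 6.51, 6.42, 6.60 and 5.61 in null livers. The second read 7.91, 8.51, 8.31 and 8.93 in WT and 5.84, 6.04, 5.79 and 5.77 in null livers. Neither overlapped between the groups, and the falls were 6.02-fold (adjusted p = 0.00109) and 5.88-fold (adjusted p = 0.000187) by limma. Null replicate 4 was the lowest liver at all 3 probe sets, and the 3 calls held with each of the 8 arrays left out in turn.

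The nearest relatives of Cyp2b10 were not called. Cyp2b13 and Cyp2b9, which are higher in female than in male mouse liver, come directly after Cyp2b10 in the order of protein-coding genes on chromosome 7. Cyp2b9 read 10.06, 11.03, 10.78 and 11.15 in WT and 9.82, 10.29, 10.14 and 10.36 in null livers. Its groups overlapped, with a log2 difference of -0.60 (95% interval -1.17 to -0.03) and a limma adjusted p of 0.213. Cyp2b13 ranged from 6.27 to 8.99 among WT livers and from 7.27 to 9.01 among null livers, with a difference of 0.41 (95% interval -0.79 to 1.61; adjusted p = 0.71). Without WT replicate 1, its lowest value, the Cyp2b13 difference was -0.01. The fourth gene, Cyp2b19, did not pass the filter.

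The genes were also set against each other within arrays, as a description with no test, since Cyp2b10 was picked for its calls. The log2 value of Cyp2b10 (mean of its 3 probe sets) minus that of Cyp2b9 was between -2.27 and -1.81 in WT and between -5.04 and -3.80 in null livers, a change of -2.26. The same quantity against Cyp2b13 changed by -3.28, from between -0.13 and 1.98 to between -3.11 and -1.41. Neither quantity overlapped between the groups.

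The sequences just upstream of these 3 genes are shown because Cyp2b10 was called and its close neighbours were not. Whether they bear on that difference was not tested, and sequence farther upstream was not searched. Each is the 250 bases before the start of transcription on the plus strand of GRCm38.p6, from RefSeq, written 5′ to 3′: chr7:25897408-25897657 for Cyp2b10, chr7:26061245-26061494 for Cyp2b13 and chr7:26173159-26173408 for Cyp2b9. Capitals mark matches, on either strand, to the core of an AhR element (GCGTG) or to a nuclear receptor half-site (AGGTCA). The antioxidant response element core TGACNNNGC and the TATA box TATAAA were also searched, and neither occurs in these 3 windows.
Cyp2b10: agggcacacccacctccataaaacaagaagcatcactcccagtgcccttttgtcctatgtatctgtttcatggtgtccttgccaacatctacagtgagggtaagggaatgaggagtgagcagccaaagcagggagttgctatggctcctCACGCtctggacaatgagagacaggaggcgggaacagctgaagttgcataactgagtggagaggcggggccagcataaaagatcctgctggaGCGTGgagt
Cyp2b13: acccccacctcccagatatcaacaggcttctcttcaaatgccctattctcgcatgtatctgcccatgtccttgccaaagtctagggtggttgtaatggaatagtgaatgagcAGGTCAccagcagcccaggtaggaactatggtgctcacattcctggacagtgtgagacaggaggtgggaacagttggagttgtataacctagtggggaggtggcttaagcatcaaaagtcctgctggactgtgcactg
Cyp2b9: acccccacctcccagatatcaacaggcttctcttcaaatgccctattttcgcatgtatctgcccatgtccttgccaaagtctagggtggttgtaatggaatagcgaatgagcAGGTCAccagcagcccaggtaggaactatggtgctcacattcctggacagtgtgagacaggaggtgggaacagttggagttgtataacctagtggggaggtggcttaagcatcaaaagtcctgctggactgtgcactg

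The Cyp2b13 and Cyp2b9 windows were identical at 248 of 250 bases, while the Cyp2b10 window matched each at 186 of 262 aligned positions (71.0%). The half-site of Cyp2b13 and Cyp2b9, 138 to 133 bases before the start, has no exact match in the Cyp2b10 window. The Cyp2b10 window holds 2 matches to the AhR core, at 101 to 97 (on the other strand) and 9 to 5 bases before the start. Promoter windows were found for 32 of the 39 P450 genes, 35 windows in all. Of these, 12 held the half-site (34.3%), 7 the AhR core, 16 the TATA box (45.7%) and none the antioxidant core. Of all 32851 windows of the same length, 4607 held the half-site, 9250 the AhR core (28.2%), 4063 the TATA box (12.4%) and 3338 the antioxidant core (10.2%).

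Cyp2c23 was the called gene of the Cyp2c subfamily. It encodes an arachidonic acid epoxygenase and was formerly named Cyp2c44. WT replicates read 11.36, 10.94, 11.78 and 11.46, and null replicates read 9.60, 9.21, 10.53 and 9.98. Every null liver was below every WT liver, with null replicate 3 closest to the WT range. The mean fell from 11.38 ± 0.34 to 9.83 ± 0.56 (SD, n = 4 each), 2.94-fold lower (limma adjusted p = 0.0135). The call was lost without both WT replicates 3 and 4, where the difference was -1.32 against -1.56 with all arrays (adjusted p = 0.0864, range over all 17 alternatives in which it was tested 0.00226 to 0.0864). The single probe set can match several transcripts.

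Cyp2c54 had a difference of like size but wider scatter. It read 10.62, 11.28, 12.06 and 12.27 in WT and 9.50, 9.21, 11.19 and 10.03 in null livers. Null replicate 3 lay inside the WT range, and the difference of -1.58 ± 0.47 (SE) was not called (limma adjusted p = 0.0843). With the replicate number as a block it was called (adjusted p = 0.0151), as it was with array weights (0.0122) and without null replicate 3 (0.0308) or WT replicate 1 (0.0423). Over its alternatives the adjusted p lay between 0.0122 and 0.35, with a difference of only -0.97 without both WT replicates 3 and 4.

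The abundant Cyp2c genes had smaller differences. Cyp2c29, Cyp2c37 and Cyp2c50, which are inducible through CAR or PXR, and Cyp2c68 and Cyp2c70 had WT means from 12.44 to 12.95 and differences from -0.60 (Cyp2c50) to -0.22 (Cyp2c68). None of the 5 was called, and the limma 95% intervals of Cyp2c37 and Cyp2c50 ended below 0, at -0.02 and -0.08. Cyp2c70, the brightest of them, read 12.91, 12.86, 13.07 and 12.95 in WT and 12.01, 12.56, 12.89 and 12.71 in null livers, with only null replicate 3 inside the WT range. Cyp2c55, a CAR-inducible form, varied 2.34 log2 units among WT livers alone (6.50 to 8.84) and was not called (difference -0.82, adjusted p = 0.324). Of 9 Cyp2c probe sets tested, 8 had negative differences, with a median of -0.51, and all 9 had under quantile normalization or centred array medians. Cyp2c23 minus the mean of the other 8 Cyp2c genes, given without a test, differed by -0.99 between null and WT livers on the log2 scale. Cyp2c39 and Cyp2c65 did not pass the filter.

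In the Cyp2d subfamily the calls were at both probe sets of Cyp2d13. RefSeq lists this locus as a transcribed pseudogene, and its probes may also bind transcripts of other Cyp2d genes, so the source of the signal is uncertain. The brighter probe set read 8.11, 8.68, 8.84 and 8.40 in WT and 6.80, 6.68, 6.06 and 6.68 in null livers. The dimmer one read 5.92, 6.32, 6.54 and 5.62 in WT and 4.57, 4.70, 4.10 and 4.53 in null livers. Null replicate 3 was lowest at both, and neither probe set overlapped between the groups. The falls were 3.88-fold (limma adjusted p = 0.00109) and 3.08-fold (adjusted p = 0.00378), called with each of the 8 arrays left out in turn.

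None of the other 5 Cyp2d genes tested was called by limma, and only Cyp2d12 was lower at an unadjusted p below 0.05. Cyp2d26, the brightest, read 12.62, 12.78, 12.79 and 12.71 in WT and 12.60, 12.67, 12.40 and 12.60 in null livers. Only null replicate 2 lay inside the WT range. Cyp2d10, Cyp2d26 and Cyp2d9, a form higher in male liver, had differences of -0.04, -0.15 and -0.38, with 95% intervals of -0.56 to 0.47, -0.51 to 0.20 and -1.35 to 0.60. Cyp2d9 alone spread over 1.90 log2 units among WT livers. Cyp2d12 was near the low-value limit, at 3.26, 3.30, 3.45 and 4.05 in WT and 2.68, 3.01, 3.16 and 2.43 in null livers. Its groups did not overlap, but it was not called (adjusted p = 0.131). Both Cyp2d22 probe sets had negative differences (-0.47 and -0.27), uncalled. All 8 Cyp2d probe sets tested had negative differences, with a median of -0.42 (-0.33 over the 6 uncalled), although Cyp2d10 reached 0.09 without null replicate 4.

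**Figure D2:**
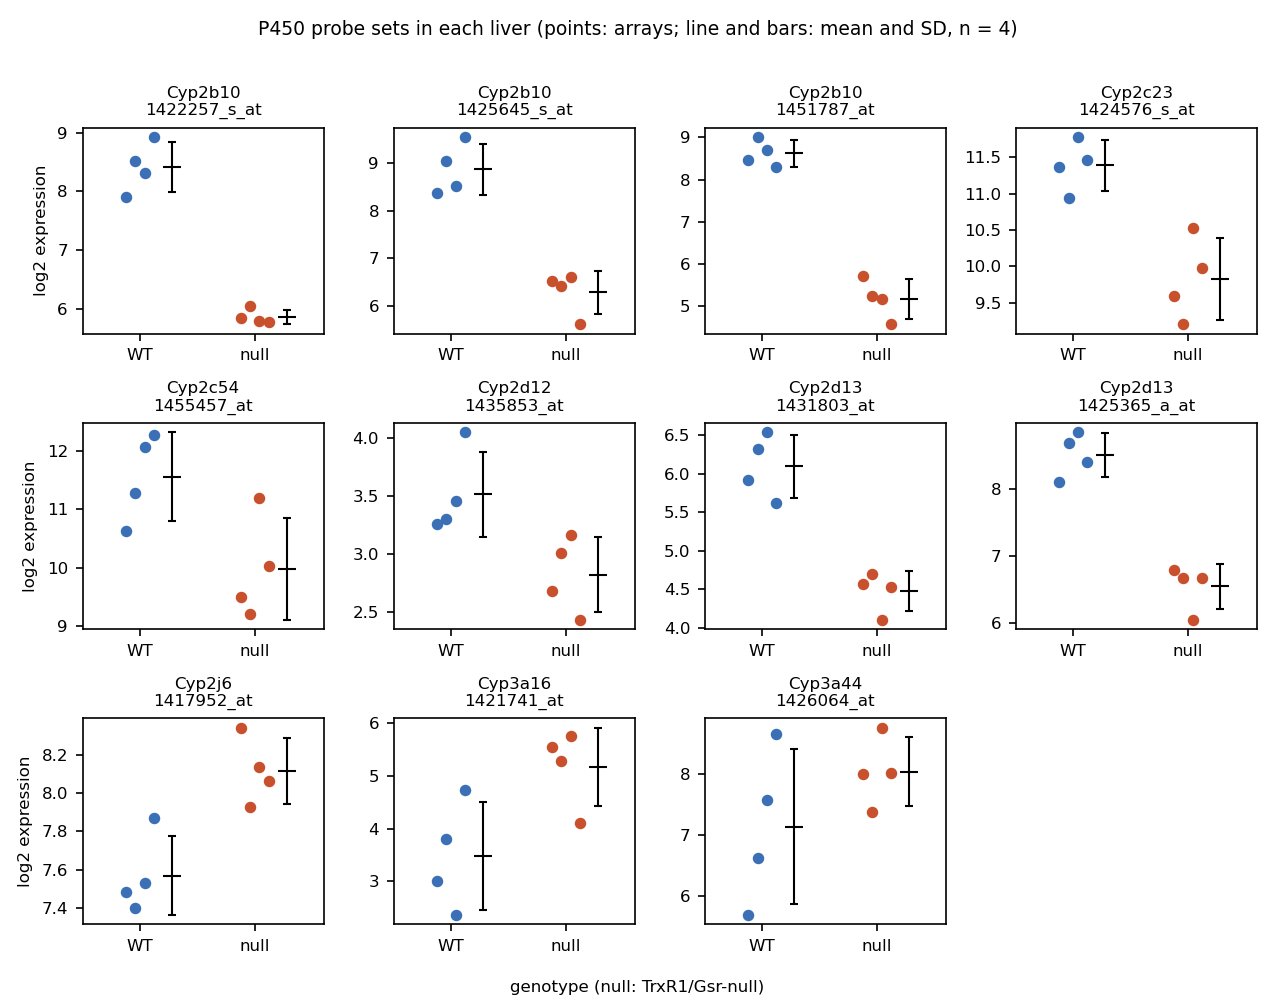
Log2 expression (y axis) in each of the 4 WT and 4 TrxR1/Gsr-null livers (x axis) for the 11 P450 probe sets that were called, called under at least 1 alternative, or without overlap between the groups. Points are arrays, and the line with bars is the mean and SD. The 3 Cyp2b10 panels show every null liver at or below 6.60 and every WT liver at or above 7.91.

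Cyp3a genes, the main drug oxidases of the PXR response, had differences of both signs and none was called (by limma, Cyp3a16 alone was higher and none lower at an unadjusted p below 0.05). Cyp3a11, the abundant adult form, read 12.74, 12.78, 13.33 and 13.57 in WT and 11.34, 11.94, 13.15 and 12.99 in null livers. Null replicates 1 and 2 lay below all WT livers, while replicates 3 and 4 of both genotypes were the higher ones. Its difference was -0.75 (95% interval -1.63 to 0.13, adjusted p = 0.314). Cyp3a13 was likewise split among null livers, at 10.18, 8.65, 9.98 and 8.13, against 10.26, 10.21, 9.90 and 9.55 in WT (difference -0.74, adjusted p = 0.362). Cyp3a25 read 12.91, 13.01, 12.77 and 12.47 in WT and 13.21, 13.03, 12.89 and 12.76 in null livers, a difference of 0.18 (-0.24 to 0.60).

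Cyp3a16, known as a form of fetal and young mouse liver, had the largest positive difference of all members tested, without being called. It read 2.998, 3.81, 2.36 and 4.73 in WT and 5.55, 5.28, 5.76 and 4.11 in null livers. Only WT replicate 4 and null replicate 4 crossed, and the difference was 1.70 ± 0.51 (SE; limma adjusted p = 0.0858). Without WT replicate 4 it was 2.12 and called (adjusted p = 0.0306, range over alternatives 0.00924 to 0.202), and 2 WT livers were below the low-value limit. Cyp3a44, higher in female liver, read 5.68, 6.62, 7.57 and 8.66 in WT and 7.997, 7.37, 8.75 and 8.01 in null livers. Its WT range was the widest of any member tested and held all null livers but replicate 3. Its difference of 0.90 was not called (adjusted p = 0.394), but without both WT replicates 3 and 4, its highest WT values, it was 1.88 and called (adjusted p = 0.045, range over alternatives 0.045 to 0.623).

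The Cyp2j genes, which encode fatty acid epoxygenases, were the subfamily with more than 1 probe set in which all differences were positive, none of them called. Cyp2j6 read 7.48, 7.40, 7.53 and 7.87 in WT and 8.34, 7.93, 8.14 and 8.06 in null livers, without overlap but by a small margin. The null mean was 1.46-fold higher, with an adjusted p of 0.116 by limma and 0.0257 with array weights (range over alternatives 0.0257 to 0.286). Cyp2j5, abundant in liver and kidney, read 11.25, 11.37, 11.15 and 10.44 in WT and 11.51, 11.61, 11.27 and 11.26 in null livers at its brighter probe set. WT replicate 4 was the low value, and the difference was 0.36 (limma adjusted p = 0.402). The dimmer Cyp2j5 probe set had a difference of 0.28 (-0.07 with array weights or without both WT replicates 3 and 4), and Cyp2j9 one of 0.28.

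Family 1 and the remaining single-gene subfamilies held no call. Cyp1a2, the constitutive hepatic target of AhR, read 10.87, 11.77, 12.12 and 11.86 in WT and 11.85, 12.27, 11.96 and 12.45 in null livers. WT replicate 1 was the low value, and the difference was 0.48 (95% interval -0.14 to 1.09, adjusted p = 0.363). Cyp1a1, the most inducible AhR target, was near background and did not pass the filter. It read 1.997, 2.29, 2.60 and 2.52 in WT and 2.84, 3.16, 2.92 and 3.17 in null livers, without overlap but with only 2 of 8 arrays above the limit. Of the 3 probe sets of Cyp1b1, an extrahepatic form, none reached the limit, and the brightest read 2.37, 2.59, 2.91 and 2.71 in WT and 2.23, 2.36, 2.71 and 2.55 in null livers.

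Several abundant P450 genes overlapped between genotypes. Cyp2e1, the ethanol-inducible form of pericentral hepatocytes, read 12.74, 12.89, 13.33 and 13.16 in WT and 12.19, 12.55, 12.94 and 12.87 in null livers (difference -0.39, 95% interval -0.89 to 0.11). Cyp2f2, known from periportal hepatocytes and lung, read 12.42, 12.55, 12.93 and 12.77 in WT and 12.33, 12.52, 13.03 and 12.79 in null livers. Its interval of -0.46 to 0.46 bounds a change in either direction. Cyp2a12, a steroid hydroxylase, read 12.21, 12.36, 12.40 and 12.61 in WT and 12.13, 12.24, 12.77 and 12.50 in null livers. Its difference of 0.01 (-0.42 to 0.45) turned negative, to -0.00 and -0.05, with quantile normalization and centred array medians. Cyp2g1, an olfactory form, read 5.38, 6.49, 5.99 and 5.84 in WT and 5.33, 5.95, 7.19 and 7.11 in null livers. Null replicates 3 and 4 were the high ones, and the difference was 0.47 (-0.46 to 1.39), or -0.01 with array weights. Cyp2s1, mainly of epithelia outside the liver, did not pass the filter, at 2.25, 2.69, 2.89 and 3.28 in WT and 1.99, 2.57, 2.50 and 2.65 in null livers.

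Read by mode of control, the members inducible through CAR or PXR gave 11 probe sets of 9 genes with 10 negative differences, a median of -0.75 and 3 calls, all of Cyp2b10. Cyp2a5, also on that list, had no probe set paired with it alone. Those known as higher in female liver gave 7 probe sets of 5 genes. Their 3 lower calls were the same Cyp2b10 probe sets, and the other 4 had differences from -0.60 (Cyp2b9) to 1.70 (Cyp3a16). The set-aside Cyp2a and Cyp3a probe sets, counted in neither group, were both higher in null livers. The Cyp2a one was called (2.54-fold, limma adjusted p = 0.009) and the Cyp3a one was not. Of the fatty acid epoxygenases on the list, 6 probe sets of 5 genes were tested, 5 with positive differences and none called. At an unadjusted limma p below 0.05 only Cyp2j6 was among them. The list held Cyp2c23 only under its former name Cyp2c44, so it was not counted, although it is an epoxygenase. It was called lower (difference -1.56, limma adjusted p = 0.0135). Among the 36 P450 probe sets tested, 8 (22.2%) had groups that did not overlap, against 14.9% of all probe sets tested. In 7 of them the null livers were lower (4.91% of all tested) and in 1 higher (9.98%). These were the 6 called ones (3 genes), Cyp2d12 and Cyp2j6. As Cyp2b10 and Cyp2d13 gave several of them, the share is one of probe sets and not of genes. Cyp2d12 lay above the low-value limit in every WT liver but only in null replicate 3, so it passed that filter through the WT livers.

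**Figure D3:**
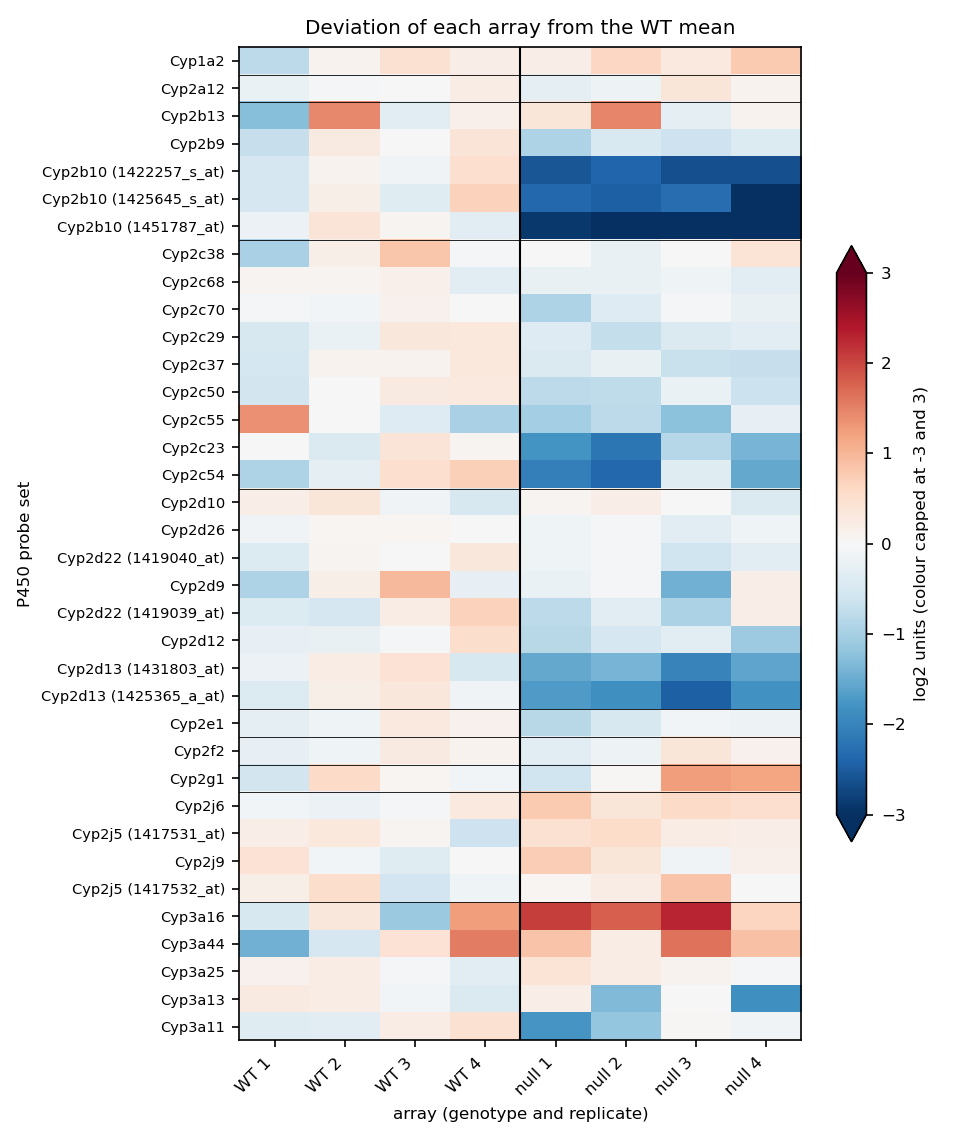
Deviation of each of the 8 arrays (x axis) from the WT mean, in log2 units, for the 36 P450 probe sets tested (y axis, by subfamily). The Cyp2b10 and Cyp2d13 rows are low in all 4 null livers, whereas the Cyp2b13, Cyp3a16, Cyp3a44 and Cyp2c55 rows vary by more than 2 log2 units among WT livers.

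Spread among animals differed widely between members. The median SD over the 4 WT livers was 0.40 for the 36 P450 probe sets and 0.36 for all probe sets tested, and over the null livers 0.33 and 0.28. The SD among WT livers was above 0.5 for 10 of the 36. The widest were Cyp3a44 (1.28), Cyp2b13 (1.13), Cyp3a16 (1.02) and Cyp2c55 (0.99), and the narrowest Cyp2d26 (0.08) and Cyp2c70 (0.09). For the 30 uncalled probe sets the limma 95% interval reached from 0.35 to 1.23 log2 units on either side of the difference, with a median of 0.53.

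The genes around the P450 pathway were read at 1 probe set per gene, 7534 genes in all, of which 6.62% were called, 4.47% higher and 2.15% lower. None of 6 tested sensors and partners was called by limma, and 1, Rxra, was lower at an unadjusted p below 0.05. Nr1i3 (CAR) read 7.80, 8.80, 8.36 and 8.33 in WT and 8.99, 8.60, 8.19 and 8.34 in null livers, a difference of 0.21 (95% interval -0.36 to 0.77). Nr1i2 (PXR) differed by 0.08 (-0.49 to 0.66) and Ahr by 0.14 (-0.51 to 0.79). Rxra, the partner of CAR and PXR, went from 9.56 ± 0.19 to 8.97 ± 0.38 (SD, n = 4 each; adjusted p = 0.144). All 4 genes overlapped between genotypes, Rxra only through null replicate 2 and WT replicate 3.

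Other targets of the same sensors were called in both directions. Of 10 tested non-P450 targets of CAR and PXR, 4 were called higher and 2 lower. Unadjusted limma p lay below 0.05 for 5 higher and 3 lower. The efflux pumps Abcc3 and Abcc2 rose 2.97-fold and 2.26-fold, the glutathione transferase Gstm1 2.05-fold and the retinaldehyde dehydrogenase Aldh1a1 1.71-fold. The uptake carrier Slco1a4 fell 5.99-fold, from 9.92 ± 0.60 to 7.33 ± 0.26 (SD, n = 4 each), and Papss2, which makes the sulfate donor, fell 1.84-fold. Abcc2, Abcc3 and Gstm1 are also known as targets of Nrf2. Of 3 tested non-P450 targets of AhR, 1 was called, Nqo1, which rose 24.0-fold and is also a target of Nrf2, while Tiparp differed by -0.08.

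**Figure D4:**
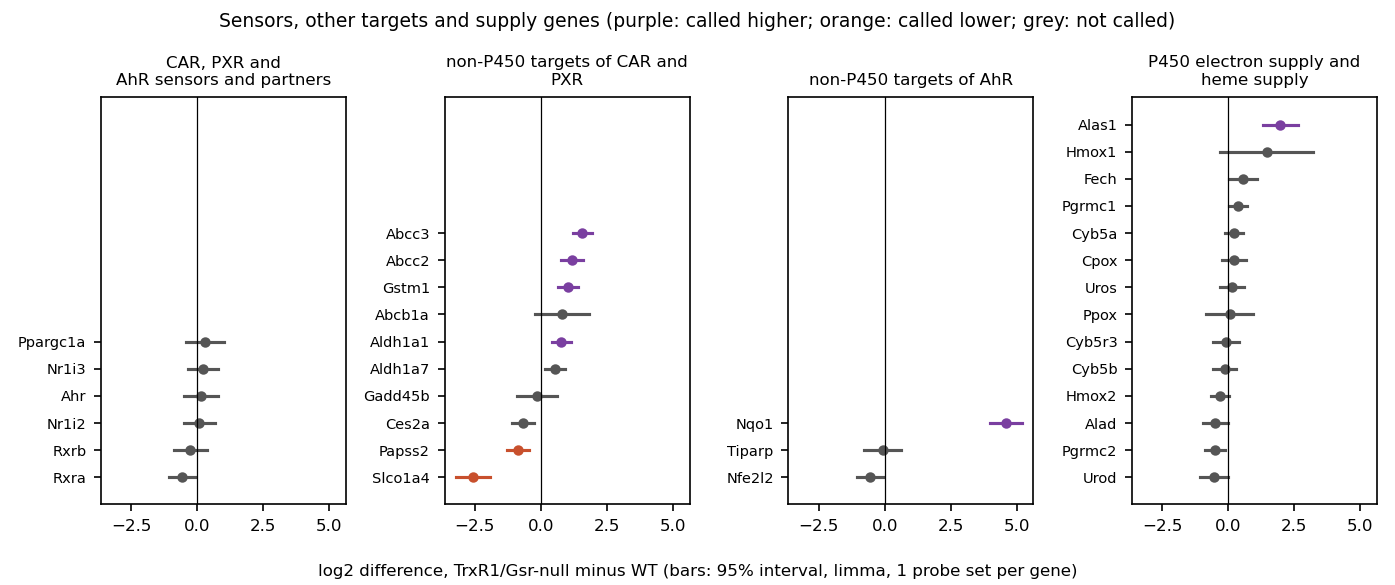
Log2 difference between TrxR1/Gsr-null and WT livers (x axis, with 95% intervals from limma, n = 4 per group) for the tested sensors, other targets and electron or heme supply genes (y axis), 1 probe set per gene. The sensor genes are grey, whereas Alas1 and Nqo1 are called higher and Slco1a4 is called lower.

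Among 14 tested genes of electron and heme supply, Alas1 was called higher and none lower. At an unadjusted limma p below 0.05, 3 were higher and 3 lower. Alas1, the rate-limiting enzyme of hepatic heme synthesis, read 8.96, 8.10, 9.01 and 8.69 in WT and 10.98, 10.74, 9.88 and 11.04 in null livers. All null livers were above all WT livers, a 3.92-fold rise (limma adjusted p = 0.00428). The electron donors Cyb5a, Cyb5b and Cyb5r3 differed by 0.21, -0.15 and -0.09, uncalled.

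Regulators of hepatocyte identity and of sex pattern were read the same way. Of 13 tested hepatocyte transcription factors, 2 were called lower and none higher. At an unadjusted limma p below 0.05, 5 were lower and none higher, and 10 of the 13 differences were negative. The called ones were Dbp (4.44-fold lower) and Tef (2.83-fold lower), clock-controlled factors that are known to drive Cyp2b10 and Nr1i3. Hlf, on the same list, differed by 0.01 (95% interval -0.45 to 0.47) and Nr1i3 by 0.21, both uncalled. Whether Dbp or Tef bears on the Cyp2b10 difference was not tested. Hnf4a differed by -0.34 (95% interval -0.88 to 0.20). None of 8 genes of the growth hormone axis was called by limma, with 1 higher and 1 lower at an unadjusted p below 0.05. These were Cux2, a female-specific repressor (4.23 ± 0.66 to 5.40 ± 0.33, adjusted p = 0.0577), and Stat5b (8.69 ± 0.42 to 7.89 ± 0.31, SD, n = 4 each; adjusted p = 0.0891).

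Many P450 genes are pericentral in the liver lobule, and genes of both zones were therefore read. Of 14 tested pericentral genes other than P450, 1 was called higher (Slc1a4, 3.32-fold) and 1 lower (Ang, 1.97-fold), with a median of -0.27. Of 15 tested periportal genes, 2 were called lower, Hal (2.60-fold) and Pck1 (2.35-fold), and none higher, with a median of -0.32. The median over all genes tested was 0.10. Unadjusted limma p lay below 0.05 for 2 higher and 5 lower pericentral genes, and for 4 periportal genes, all lower.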

How the data were processed

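The authors ran GCRMA, per the submitters' processing notes; its version was not stated there. The deposited table holds 1 log2 value per probe set and array, from 0.53 to 14.6; the log2 scale was read from the values. GCRMA pulls values near background together. Of 22690 probe sets, 64 controls were left out. Of the others, those among the lowest 40% by mean were dropped unless at least 4 arrays exceeded the limit, leaving 13776. All were fitted with limma 3.58.1 in R 4.3.3 (2 groups, no covariates, two-sided, Benjamini-Hochberg over all probe sets tested); calls used an adjusted p below 0.05. Other genes were fitted at 1 probe set per gene (never _x_at if another existed, then the highest mean), with the low-value limit set anew. Symbols come from GEO's platform annotation (20380 probe sets with 1 symbol, 691 with several, 1555 other than controls with none), updated through a GRCm38.p6 RefSeq table that matched all 46 P450 probe sets and changed none of their symbols. The members and lists were chosen with earlier results of these data known.

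Full values are given for members called in any setting, members without overlap, the brightest probe set of each subfamily, and Cyp1a2, Cyp2b10, Cyp2e1 and Cyp3a11; of other lists, called genes and the first 3 members may be named. Rxra, Cux2, Stat5b and any other gene outside this rule were named after their values were seen. Same-numbered arrays of the 2 groups, numbered in the titles, deviated together (correlations 0.21 to 0.38), which meets the rule for pairing; the printed calls ignore the numbers, and the fit with them as a block is an alternative. No 2 arrays correlated above 0.99. The labels call the arrays biological replicates. The fit was tested on simulated data with 200 of 13776 probe sets changed. Changes of 0.5, 1 and 2 log2 units were called in 0%, 28.4% and 84.8% of cases. Of the calls, 3.85% were false.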

Additional observations from a re-analysis of the deposited data

Results flagged for a closer look

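Among 92 sets of 4 values (46 P450 probe sets in 2 groups), 2 held 1 array far from the other 3. Chance gives about 1 in 20 sets, or 4.6 of the 92, which is more than were found. At the brighter Cyp2d13 probe set, TrxR1/Gsr-null replicate 3 read 6.06 and the other null livers 6.68 to 6.80. At the Cyp2j13 probe set, which did not pass the low-value filter, WT replicate 3 read 1.81 and the other WT livers 1.95 to 1.97.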

How the results depend on the processing

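The count of 6 P450 probe sets called lower was 3 at 1 probe set per gene (30 genes tested, 1 each of Cyp2b10, Cyp2c23 and Cyp2d13) and 2 when probe sets marked for several transcripts were dropped (30 probe sets tested); both settings test fewer probe sets. With the replicate block or array weights it was 7, with Cyp2c54 added, and the block changed no other P450 call. The block called 2.53% of all probe sets tested lower and 5.15% higher, and array weights 4.84% and 7.32%. The main fit called 1.64% and 3.85%. Without both WT replicates 3 and 4 the count called lower was 5, with Cyp2c23 lost (1.38% of all probe sets tested). Leaving out 1 array gave 6 to 7 lower and 0 to 1 higher, with a median difference of -0.41 to -0.28; all 6 calls held each time. The count called higher was 2 with array weights (Cyp2j6 and Cyp3a16), 1 without WT replicate 4 (Cyp3a16) and 1 without both WT replicates 3 and 4 (Cyp3a44). Of all probe sets tested, 2.96% were called higher without WT replicate 4 and 2.02% without both WT replicates 3 and 4. The median was -0.23 with array weights, -0.25 when probe sets marked for several transcripts were dropped, -0.18 with no filter on low values (46 probe sets) and -0.13 without both WT replicates 3 and 4, and the causes were not tested. For the 11 probe sets named in the plot of values by array, no alternative turned the direction. The other alternatives (the lowest 60% left out, quantile normalization, centred medians, a trended robust prior) changed no P450 call. With 4 arrays per group and signals near background, small changes and those of Cyp1a1, Cyp2d12 and Cyp3a16 are poorly measured.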

Other observations

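Both probe sets paired with several P450 genes, whose gene cannot be named, were higher in null livers. The Cyp2a one read 12.33, 12.53, 13.09 and 13.02 in WT and 13.78, 13.91, 14.33 and 14.33 in null livers, 2.54-fold higher (limma adjusted p = 0.009; called in all 16 alternatives in which it was tested). This was opposite in direction to every called member. The Cyp3a one lay between 10.65 and 11.93 in WT and between 11.96 and 12.76 in null livers and was not called (2.05-fold, adjusted p = 0.0885; range over alternatives 0.0572 to 0.215).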
